A study of Rattus norvegicus with 9 samples.

Results

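The D-type cyclins, the kinases they activate and the inhibitors that restrain those kinases were described in pancreatic islets of rats fed a cafeteria diet, set against islets of rats on standard chow. The group holds 10 genes, which are the cyclins Ccnd1, Ccnd2 and Ccnd3, the kinases Cdk4 and Cdk6, the Cip/Kip inhibitors Cdkn1a, Cdkn1b and Cdkn1c, and the INK4 inhibitors Cdkn2b and Cdkn2c. They were taken by symbol from the 14217 genes named on the array, using probe sets annotated with 1 gene only. All 10 were named, by 15 probe sets, and the brightest probe set of each gene over all arrays served as its main one, any others being numbered by falling mean signal.

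D cyclins are the first cyclins made when a resting cell is stimulated to divide. They bind Cdk4 or Cdk6, and the active kinase phosphorylates the retinoblastoma protein, which releases E2F factors that switch on the genes of DNA synthesis. INK4 proteins bind Cdk4 and Cdk6 directly, whereas Cip/Kip proteins bind cyclin and kinase complexes and mainly block Cdk2. In mice, loss of Cdk4 or of Ccnd2 leaves too few beta cells after birth, so this step is the known gate on islet growth.

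The samples were islets of adult male Wistar rats, 7 weeks old and 225 to 250 g, caged singly and kept for 30 days on 1 of 2 diets. The cafeteria group, called obese in the design, drew 66% of its calories from fat (5 arrays), and the standard group, on chow and called lean, 8% (4 arrays). Islets were freed with collagenase, enriched on a density gradient and picked by hand, and each array was hybridised with RNA of 1 sample described as an independent biological replicate. The labels do not say whether a sample is a single rat. A further standard sample named in the design was not analysed here.

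Diets were assigned from the sample titles, with which source name and description match. A separate diet field contradicts them in 9 of 9 samples, and with that field the signs of all differences between diets below would be turned. Values are linear MAS5 signals. The median signal of an array was 146.9 to 166.6, and any pair of arrays correlated at 0.941 to 0.974. The tissue label fits its defining markers: Ins1 had a mean signal of 32470 ± 6067 in cafeteria and 30614 ± 5678 in standard islets (SD, n = 5 and 4), and Gcg 42076 ± 5853 and 40403 ± 6231. The whole preparation was measured, so fewer cells of a type and less RNA per cell cannot be told apart. The summed signals of marker lists of other cell types were not tested between diets. For 22 of 24 acinar genes named, the sum was 3746 to 13513 on cafeteria and 4845 to 11751 on standard arrays, and for 23 of 23 macrophage and antigen presentation genes it was 6785 to 11311 and 11230 to 20865. The ranges overlapped for both lists, for the macrophage list only between 11230 and 11311. Acinar genes had positive log2 folds of cafeteria over standard in 16 of 17 tested (median 0.43). Of these, 2 had an unadjusted limma p under 0.05. Macrophage genes had negative folds in 18 of 18 tested (median -0.55), 9 of them at that level. Immediate early and dissociation stress genes had negative folds in 16 of 18 tested (median -0.43), 4 of them at that level. Folds were negative for 14 of 16 endothelial, 7 of 9 duct and 3 of 3 lymphocyte genes, with 1 of each list at that level. Stellate cell and fibroblast genes were split, with 11 positive and 7 negative of 18 tested. Of all 18625 tested probe sets, 3.01% were higher and 2.79% lower at that level. None of the 18625 passed adjustment in limma.

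No gene of the group passed the test between diets. Of the 10 main probe sets, 8 were bright enough to be tested, and 0 of 8 had an adjusted p under 0.05 in limma (lowest 0.859), where the share over all 18625 tested probe sets was 0%. None of the 8 had an unadjusted limma p under 0.05 either, a level that 5.80% of all tested reached. The groups overlapped at 15 of 15 probe sets, 11 of them tested. Of all tested probe sets only 1.76% did not overlap, so overlap was the usual case. The log2 fold of cafeteria over standard, taken on log2(signal + 16), was above 0 for 7 of the 8, against 48.1% of all tested. Its median was 0.11 over the 8, against -0.01 over all tested.

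**Figure D1:**
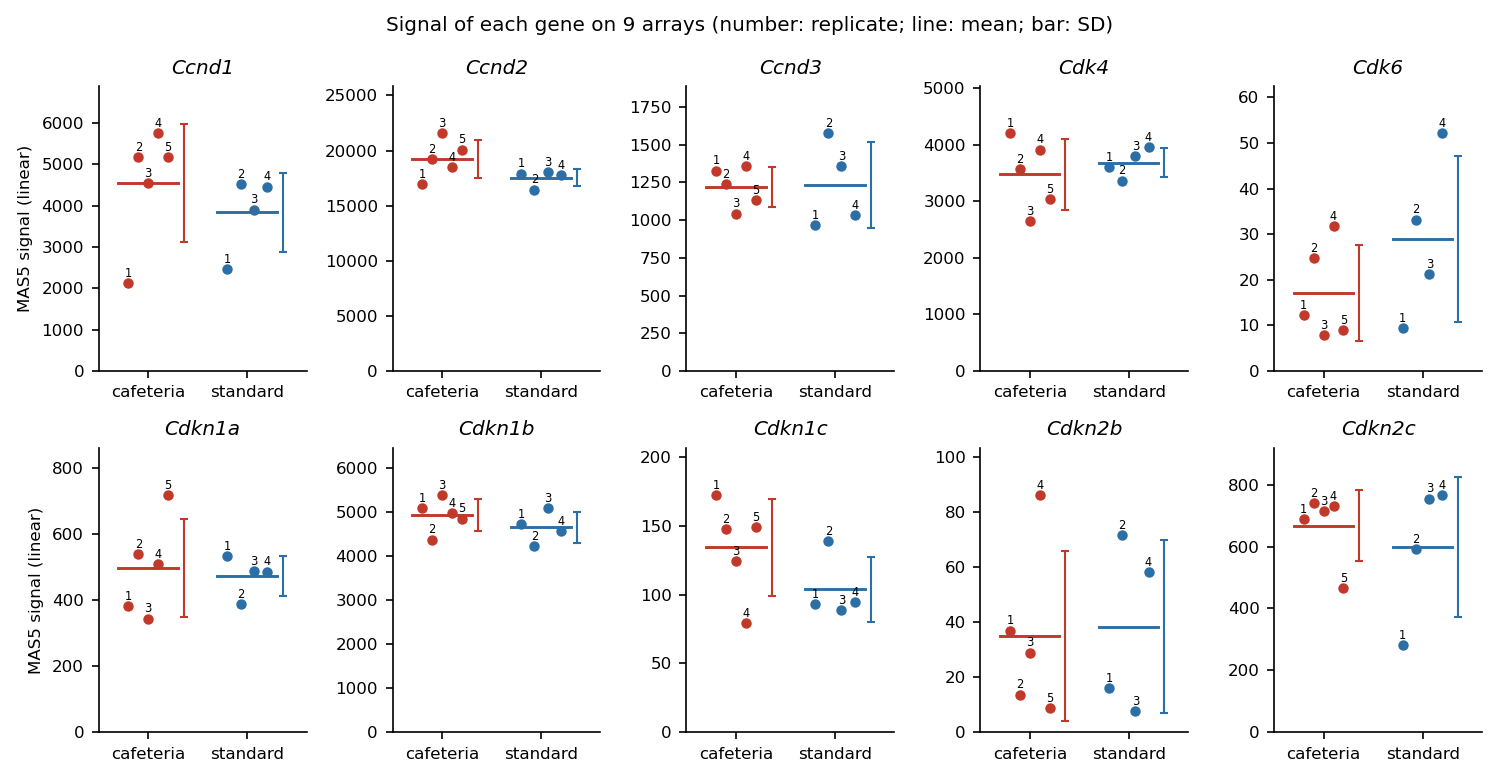
MAS5 signal (linear axis from 0) of the main probe set of each of the 10 genes on every array, cafeteria in red and standard in blue, with the replicate number beside each point, a line at the mean and a bar of 1 SD. Points of both diets overlap in every panel, and Cdk6 and Cdkn2b stay under 100 on each array.

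Ccnd2 encodes the D cyclin that mouse beta cells depend on most. Its 1 probe set ranked 82nd of 31042 by mean. It read 16949, 19202, 21544, 18497 and 20083 on the cafeteria arrays, against 17908, 16444, 18051 and 17778 on the standard arrays. Replicates 2 to 5 of the cafeteria group lay above all 4 standard arrays, and cafeteria replicate 1 lay inside the standard range. The means were 19255 ± 1719 in cafeteria and 17545 ± 743 in standard islets (SD). The log2 fold was 0.13 ± 0.09 (SE; limma adjusted p = 0.859), with a 95% interval from -0.07 to 0.33. That interval allows a cafeteria level between 0.956 and 1.25 times the standard one.

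Ccnd1, a cyclin that growth factors induce in many cell types, had 3 probe sets. The main one read 2118, 5178, 4539, 5745 and 5167 on cafeteria arrays, against 2461, 4521, 3902 and 4458 on standard arrays. Replicate 1 was the low array of each diet here, and the other 4 cafeteria arrays lay above all standard ones. The log2 fold was 0.21 ± 0.27 (SE; limma adjusted p = 0.924). It was 0.46 without cafeteria replicate 1 and 0.0070 without standard replicate 1, so a single array of either diet set its size.

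At the second probe set of Ccnd1 the signals were 2305, 3248, 3374, 3395 and 4099 in cafeteria islets, against 2202, 2438, 2485 and 3267 in standard islets. At the third they were 1663, 2051, 1821, 2300 and 2176, against 1241, 2087, 1451 and 1629. The groups overlapped at both, with the lowest value on standard replicate 1. Their log2 folds were 0.33 ± 0.16 and 0.33 ± 0.15 (SE; both limma adjusted p = 0.839). The third was the only 1 of the 11 tested probe sets of the group with an unadjusted p under 0.05 (limma, 0.0435). It was higher in cafeteria islets, as 3.01% of all tested probe sets were at that threshold, while 0 of 11 were lower, against 2.79% of all. Its fold was 0.22 without standard replicate 1 and 0.14 without standard replicates 1 and 3 and cafeteria replicate 3, the arrays highest in the summed signals of immediate early genes (95820) and macrophage genes (20865) and in the beta-actin ratio described below (5.63).

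Ccnd3, the third D cyclin, was read by 1 probe set at 1328, 1238, 1042, 1357 and 1134 in cafeteria islets, against 969, 1574, 1358 and 1031 in standard islets. The cafeteria values all fell inside the standard range. Means were 1220 ± 132 and 1233 ± 284 (SD), and the log2 fold was 0.01 ± 0.15 (SE; limma adjusted p = 0.997), with an interval from -0.32 to 0.33.

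**Figure D2:**
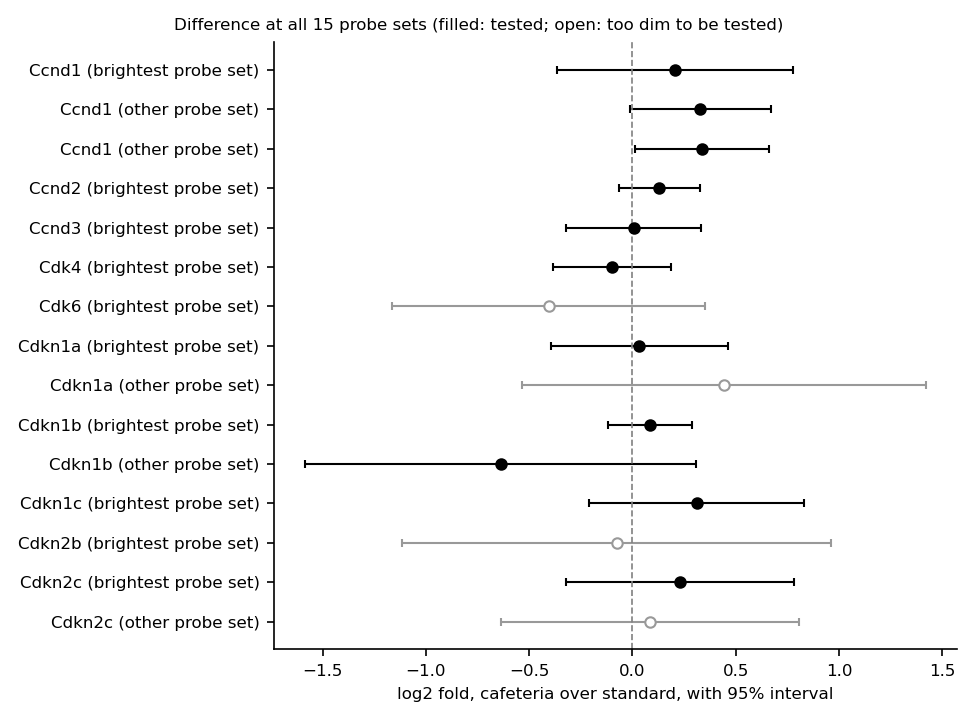
Log2 fold of cafeteria over standard, with its 95% interval, at all 15 probe sets of the 10 genes. Filled points are the 11 probe sets that were tested, open grey points the 4 too dim to be tested. The intervals cross 0 at all but the third probe set of Ccnd1 (0.01 to 0.66), which did not pass after adjustment.

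Cdk4 encodes the catalytic partner of the D cyclins. Its promoter is shown because the gene is the readily measured kinase of the group, and because E-boxes, the CACGTG sites bound by Myc and by clock factors, are a known feature of the human gene. The 250 bases before the annotated start of rat Cdk4 (RefSeq, GRCr8, chr7:64771203-64771452, plus strand) are given 5′ to 3′ with each CACGTG in capitals.
Cdk4: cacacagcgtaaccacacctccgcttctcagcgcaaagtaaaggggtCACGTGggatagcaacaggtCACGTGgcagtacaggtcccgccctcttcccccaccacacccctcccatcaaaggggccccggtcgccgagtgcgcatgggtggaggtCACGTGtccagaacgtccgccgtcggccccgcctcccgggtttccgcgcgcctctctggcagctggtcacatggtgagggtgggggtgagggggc
The 3 sites begin 203, 183 and 95 bases before the start and overlap no GC box. Of 33469 rat promoters of that length, 5.59% held CACGTG, which reads the same on both strands, and 17 held 3 or more. RefSeq promoters were matched for 6 of the 10 genes, and CACGTG was found in none of the windows of Ccnd3, Cdkn1a, Cdkn1b, Cdkn2b and Cdkn2c. The GC box GGGCGG, searched on both strands and present in 30.5% of all promoters, matched 3 times at Cdkn2b, 2 times at Ccnd3, 1 time each at Cdk4, Cdkn1b and Cdkn2c and 0 times at Cdkn1a. The CCAAT box and the cAMP response element TGACGTCA were searched in the same way. CCAAT, present in 34.0% of all promoters, matched 2 times at Cdkn1b, 1 time at Ccnd3 and 0 times at the others. TGACGTCA, present in 1.59%, matched 1 time at Cdkn2b and 0 times at the others. A match describes the letters in these windows and is not evidence of binding.

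The Cdk4 signal was 4198, 3568, 2648, 3915 and 3044 in cafeteria islets, against 3602, 3364, 3792 and 3962 in standard islets. Cafeteria arrays were both the highest (replicate 1) and the lowest (replicates 3 and 5) of the 9. Means were 3475 ± 632 and 3680 ± 257 (SD), and the log2 fold was -0.10 ± 0.13 (SE; limma adjusted p = 0.927). With each array left out in turn it lay between -0.17 (without cafeteria replicate 1) and -0.0069 (without cafeteria replicate 3), and it was -0.037 with array weights.

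The spread of Cdk4 moved with a control for RNA integrity over these 9 arrays, but no adjusted p of the relation was under 0.05. The beta-actin control, whose 3′ over 5′ signal ratio rises as RNA is degraded or copied incompletely, had ratios of 2.795, 3.75, 5.63, 3.24 and 4.59 on cafeteria arrays, against 4.84, 3.82, 3.36 and 3.00 on standard arrays. The 2 arrays lowest in Cdk4 had the highest ratios of the cafeteria group, and the array with the lowest ratio was the highest in Cdk4. Over 9 arrays Pearson's r between the log2 values was -0.89 (exact permutation p = 0.00091) and Spearman's rho -0.90 (exact permutation p = 0.0020). The r was -0.90 with both diets centred and -0.75 without the 2 arrays farthest from the median ratio. This was 1 of 140 relations computed between the 10 genes and 14 measures of each array. The exact permutation p adjusted over them was 0.0639 for r and 0.071 for rho. With the ratio as a covariate the Cdk4 fold was -0.06 ± 0.09 (SE).

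Cdk6, the alternative partner kinase, was at the dim end of the array. Its probe set read 12.2, 24.7, 7.8, 31.8 and 9.0 in cafeteria islets, against 9.4, 33.2, 21.3 and 52.1 in standard islets. These lie at the 10th percentile of mean signal, below the level of about 91.1 needed for testing. No difference was detectable at signals this low. Among the 140 relations with array measures, Cdk6 had the only rho that passed adjustment, with the summed p53 targets (rho = -0.95, exact permutation p = 0.00035, adjusted 0.0494). Its r there was -0.80 (exact permutation p = 0.0056, adjusted 0.195), and -0.59 without cafeteria replicate 3 and standard replicate 4.

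**Figure D3:**
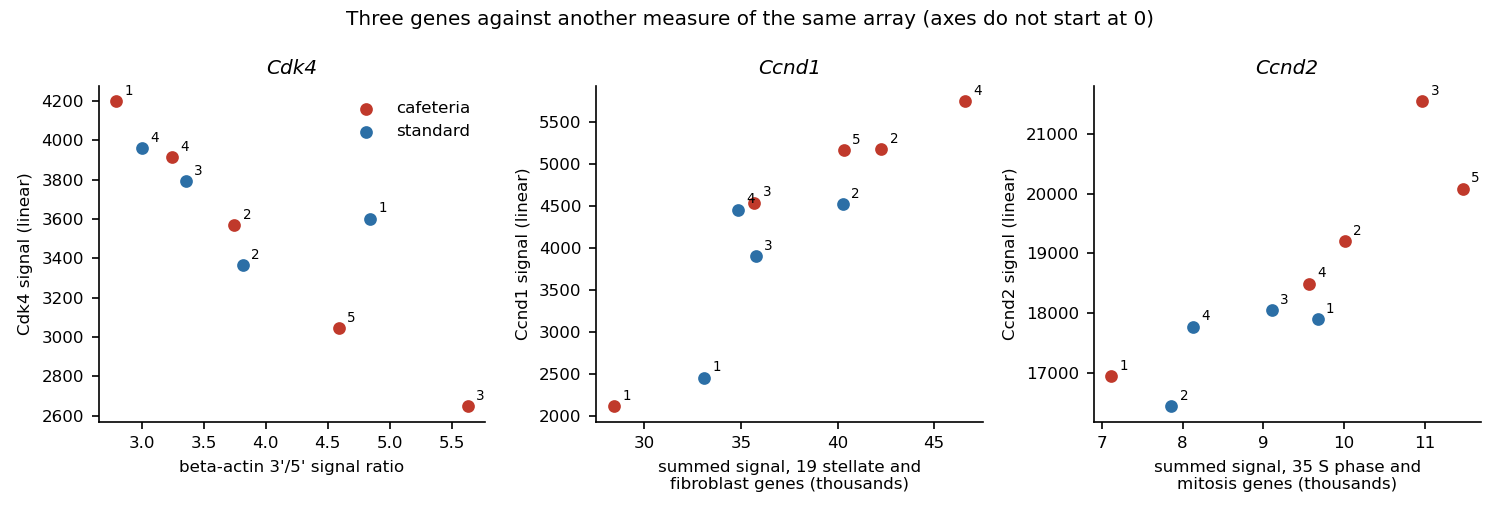
Signal of Cdk4 against the beta-actin 3′ over 5′ ratio, of Ccnd1 against the summed signal of 19 stellate and fibroblast genes, and of Ccnd2 against that of 35 S phase and mitosis genes, 1 point per array with its replicate number, cafeteria red and standard blue. Axes do not start at 0. Cdk4 falls with the ratio (r = -0.89), and Ccnd1 and Ccnd2 rise with their sums (r = 0.89 and 0.88, on log2 values).

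Among the inhibitors, Cdkn1b encodes p27, whose loss in mice lets beta cells divide more. The main probe set read 5080, 4374, 5384, 4966 and 4848 in cafeteria islets, against 4731, 4226, 5083 and 4562 in standard islets. The ranges overlapped, with only cafeteria replicate 3 above all standard arrays. The log2 fold was 0.08 ± 0.09 (SE; limma adjusted p = 0.910), and the interval allows a level between 0.920 and 1.22 times the standard one. With each array left out in turn the fold lay between 0.039 (without standard replicate 2) and 0.13 (without standard replicate 3).

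A second Cdkn1b probe set behaved otherwise. It read 191.3, 78.3, 28.1, 90.8 and 295.1 in cafeteria islets, against 174.8, 170.2, 190.3 and 169.7 in standard islets. The standard arrays lay close together, while 3 cafeteria arrays lay below and 2 above them. Its log2 fold was -0.64 ± 0.44 (SE; limma adjusted p = 0.859), -0.27 without cafeteria replicate 3 and -0.97 without cafeteria replicate 5 (limma adjusted p = 0.957). The SD of log2 signals was 15.4 times larger in cafeteria than in standard islets, and 5 of 18625 tested probe sets had a ratio at least as large (median ratio 1.07). This pattern was singled out after its values were seen, and the spread was not tested.

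**Figure D4:**
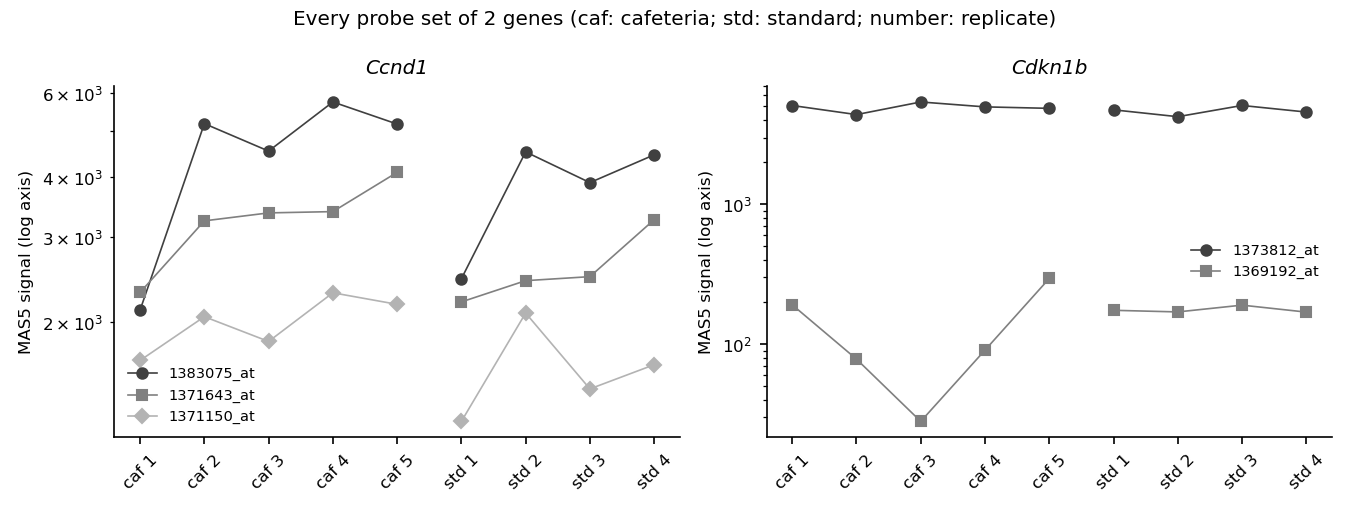
Signal (log axis) of the 3 probe sets of Ccnd1 and the 2 of Cdkn1b on each array, cafeteria arrays left and standard arrays right. The Ccnd1 lines run largely in parallel, whereas the dim Cdkn1b probe set ranges from 28.1 to 295.1 in cafeteria islets while the bright one stays between 4374 and 5384.

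Cdkn1a encodes p21, which p53 and stress signals induce. Its main probe set read 381.0, 539.2, 344.1, 508.2 and 718.3 in cafeteria islets, against 532.5, 387.2, 487.9 and 486.6 in standard islets. Cafeteria arrays lay on both sides of the standard range. The log2 fold was 0.03 ± 0.20 (SE; limma adjusted p = 0.989). The other probe set was too dim to be tested, at 8.3 to 81.7 in cafeteria and 13.4 to 35 in standard islets.

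Cdkn1c encodes p57, an imprinted inhibitor that is lost in focal forms of human hyperinsulinism. Its probe set read 172.2, 147.2, 124.3, 79.4 and 148.8 in cafeteria islets, against 93.3, 138.7, 88.6 and 94.6 in standard islets. Cafeteria replicates 1, 2 and 5 were above all standard arrays and replicate 4 below them. Means were 134.4 ± 35.1 and 103.8 ± 23.4 (SD), and the log2 fold was 0.31 ± 0.24 (SE; limma adjusted p = 0.866). With each array left out in turn it lay between 0.22 (without cafeteria replicate 1) and 0.47 (without cafeteria replicate 4). It was 0.16 with array weights and 0.18 without standard replicates 1 and 3 and cafeteria replicate 3. The interval ran from -0.21 to 0.83.

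Cdkn2c encodes p18, an INK4 protein whose gene, like Cdkn1b, is kept active by menin in mouse endocrine cells. The main probe set read 687.9, 739.5, 715.0, 730.2 and 464.9 in cafeteria islets, against 282.5, 590.6, 754.5 and 766.3 in standard islets. All cafeteria values fell inside the wider standard range. The log2 fold was 0.23 ± 0.26 (SE; limma adjusted p = 0.908), and with each array left out in turn it lay between -0.084 (without standard replicate 1, the lowest array) and 0.38 (without standard replicate 4). It was 0.11 with array weights. The other probe set was too dim to be tested, at 30.8 to 102.5 in cafeteria and 38.1 to 96.5 in standard islets. Cdkn2b, which encodes p15 and responds to TGF-beta, was also too dim, at 8.8 to 86.2 and 7.6 to 71.6.

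Signals of different probe sets are not on a common scale, so the data do not rank one cyclin or inhibitor above another. The probe sets of a single gene show how far the scale can move. Among probe sets bright enough to be tested, the brightest and dimmest differed 2.32-fold in mean signal for Ccnd1 and 31.15-fold for Cdkn1b. Each probe set's place among all 31042 is given as a description only and has the same limit. Main probe sets of Ccnd1, Ccnd2, Cdk4 and Cdkn1b stood at or above the 96th percentile of mean signal, Ccnd3 at the 87th, Cdkn2c at the 76th, Cdkn1a at the 71st and Cdkn1c at the 45th. Cdkn2b and Cdk6 stood at the 17th and the 10th. The other probe sets stood at the 95th and 92nd for Ccnd1, the 48th for Cdkn1b, the 34th for Cdkn2c and the 16th for Cdkn1a.

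How far probe sets of 1 gene moved together across arrays was compared in 6 pairs. The main and second of Ccnd1 had r = 0.79 and rho = 0.78 (exact permutation p = 0.0039 and 0.017), and r was 0.66 without cafeteria and standard replicates 1. The other pairs of Ccnd1 had r = 0.74 and 0.67 (exact permutation p = 0.022 and 0.052). For Cdkn1a, Cdkn1b and Cdkn2c the r values were 0.34, -0.29 and 0.13 (exact permutation p = 0.37, 0.45 and 0.75). Adjusted over the 6 pairs, only that of the main and second Ccnd1 probe sets was under 0.05 (0.0235).

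Ccnd1 varied with the connective tissue genes of the preparation. The summed signal of 19 of 19 stellate cell and fibroblast genes was 28416, 42269, 35687, 46619 and 40323 on cafeteria arrays, against 33082, 40258, 35763 and 34847 on standard arrays. The array lowest in this sum, cafeteria replicate 1, was also the lowest in Ccnd1, and the highest, cafeteria replicate 4, was the highest in Ccnd1. Over 9 arrays r was 0.89 (exact permutation p = 0.00012, adjusted over the 140 relations 0.0166) and rho 0.92 (exact permutation p = 0.0013, adjusted 0.0612). The r was 0.89 with both diets centred and 0.77 without cafeteria replicates 1 and 4. Col3a1, a fibrillar collagen, ranged from 1783 to 6620 in cafeteria and from 3077 to 3610 in standard islets, so none of these arrays lacked the cells' defining transcripts. The part of these cells in the Ccnd1 difference was not tested.

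Ccnd2 varied with genes of DNA synthesis and mitosis over these 9 arrays, but no adjusted p of the relation was under 0.05. Their sum, over 35 of 38 genes, was 7117, 10012, 10971, 9568 and 11476 on cafeteria arrays, against 9674, 7862, 9105 and 8123 on standard arrays. The 3 cafeteria arrays with the highest sums were also the 3 highest in Ccnd2. Over 9 arrays r was 0.88 (exact permutation p = 0.0016, adjusted over the 140 relations 0.0741) and rho 0.92 (exact permutation p = 0.0013, adjusted 0.0612). The r was 0.88 with both diets centred and 0.83 without cafeteria replicate 1 and standard replicate 2. Ccnd2 also had r = 0.67 with the beta-actin ratio (rho = 0.52; exact permutation p = 0.046 and 0.16), and 0.26 without cafeteria replicates 1 and 3. The part of RNA integrity in the relation was not tested. The 2 arrays highest in Ccnd2, cafeteria replicates 3 and 5, were those lowest in Cdk4.

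Within the group, 45 pairs of main probe sets were compared across the 9 arrays and none passed adjustment (lowest adjusted p = 0.806). The strongest was Ccnd2 with Cdk4, at r = -0.75 and rho = -0.58 (exact permutation p = 0.022 and 0.11). Without cafeteria replicates 3 and 5 that r was 0.033, so it rested on those arrays. Next were Cdk6 with Cdkn2b (r = 0.60, rho = 0.55; exact permutation p = 0.089 and 0.13) and Cdk6 with Cdkn1b (r = -0.57, rho = -0.62; exact permutation p = 0.11 and 0.086), both of which include a dim probe set. Over 10346 other genes, the closest pattern was Pgm2 for Ccnd2 (r = 0.97), Tmem14c for Cdk4 (0.98), Rab8a for Ccnd1 (0.92), Txnl4a for Ccnd3 (0.95), Nckipsd for Cdkn1a (0.94), Erlin2 for Cdkn1b (0.93), Mvp for Cdkn1c (0.90) and Mfsd3 for Cdkn2c (0.94). Each is the highest of all those searched, and the exact permutation p times the number searched was 0.342 or more, so none stands out.

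**Figure D5:**
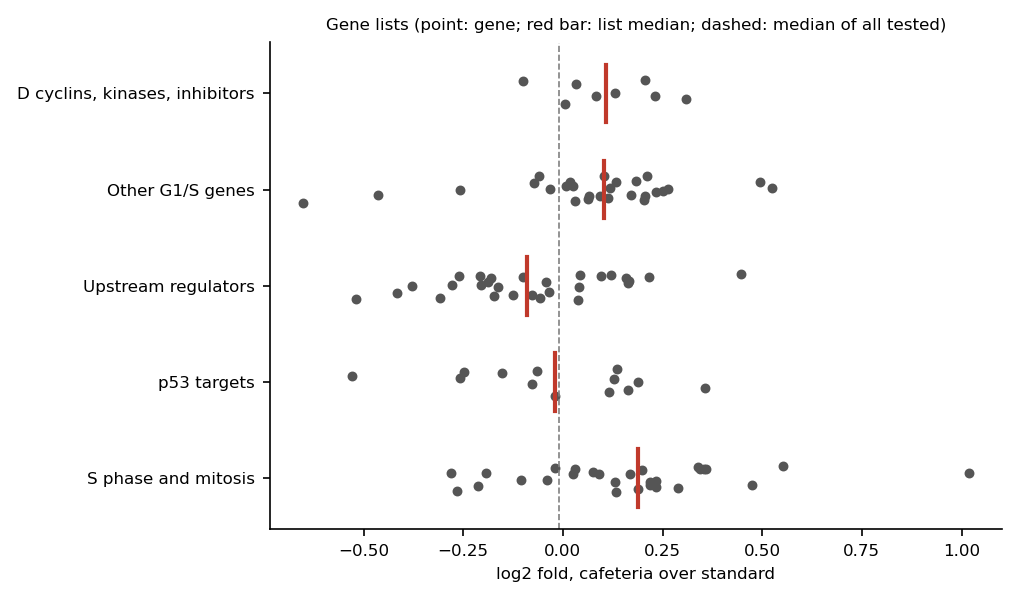
Log2 fold of cafeteria over standard for each tested gene of the group and of 4 lists around it, with the list median in red and the median of all tested probe sets as a dashed line. The medians run from -0.09 for upstream regulators to 0.19 for S phase and mitosis genes, and no gene shown passed adjustment.

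Genes that act beside the D cyclins at the entry to S phase gave no call either. Of 30 listed, 28 were named and 27 tested, 21 with a positive and 6 with a negative log2 fold (median 0.10, against -0.01 over all), and 0 passed in limma. At an unadjusted p under 0.05 there were 2 of 27, near the 5.80% of all tested. Cks1b, a small subunit that helps the SCF ligase mark p27 for destruction, read 444.9, 351.7, 388.6, 397.6 and 507.0 in cafeteria islets, against 230.8, 287.4, 323.8 and 300.2 in standard islets. Its groups did not overlap, which held for 1.76% of all tested probe sets. The log2 fold of Cks1b was 0.52 ± 0.15 (SE; limma adjusted p = 0.839). E2f2, an E2F activator, read 157.3, 273.6, 223.7, 168.9 and 257.3, against 424.4, 248.0, 369.1 and 348.1. Its groups overlapped and its fold was -0.65 ± 0.21 (SE; same adjusted p). Ccne1, the cyclin that follows the D cyclins, had 0.50 ± 0.23 and Cdk7, part of the kinase that activates other CDKs, 0.26 ± 0.13.

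S phase and mitosis genes, read out downstream of this gate, had positive folds in 22 of 29 tested, against 48.1% of all tested probe sets. Their median was 0.19, against -0.01 over all, and 0 passed in limma. At an unadjusted limma p under 0.05 there were 2 of 29, near the 5.80% of all tested. Kif20a, a mitotic kinesin, read 128.5, 216.1, 293.2, 219.1 and 293.3 in cafeteria islets, against 114.9, 69.6, 171.6 and 73.9 in standard islets. Its log2 fold was 1.02 ± 0.29 (SE; limma adjusted p = 0.839), with 4 of 5 cafeteria arrays above all standard ones. The others with the smallest p were Rrm1, a ribonucleotide reductase subunit (0.55 ± 0.25), Cenpf, a kinetochore protein (0.36 ± 0.18), and Bub1, a checkpoint kinase (0.34 ± 0.18).

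Upstream regulators of the D cyclins and inhibitors had positive folds in 10 and negative folds in 18 of 28 tested (median -0.09), and 0 passed in limma. Ghr, the growth hormone receptor, had 0.45 ± 0.12, and the TGF-beta pathway genes Smad3 and Smad7 had -0.52 ± 0.24 and -0.28 ± 0.15. Foxo3, a factor that induces Cdkn1b, had -0.16 ± 0.11. Myc, the E-box factor named above, was too dim to be tested. Prlr, the prolactin receptor that raises Ccnd2 in rodent islets, and Men1, which encodes menin, were named for that role, Prlr after its values were seen. Their log2 folds were 0.16 ± 0.12 and -0.08 ± 0.12. Targets of p53 other than Cdkn1a were split, with 6 positive and 7 negative of 13 tested (median -0.02), and 0 passed. Perp had -0.53 ± 0.20, Sesn2 -0.25 ± 0.11, Ccng1 0.36 ± 0.17 and Aen 0.16 ± 0.14.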

How the data were processed

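Islet RNA of 5 cafeteria and 4 standard samples was read on single-colour Affymetrix Rat Genome 230 2.0 arrays. The deposited values are a linear intensity for every probe set. The submitters' processing notes name MAS5 as the authors' software without a version. Each array had a mean of 500 with 2% trimmed from each end, so no further scaling was applied. The number of arrays limits the precision.

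The 57 control probe sets were left out of 31099, leaving 31042: 20826 with 1 symbol, 436 with several and 9780 with none, per the platform annotation. All 10 genes matched RefSeq by identifier. The test was limma 3.58.1 under R 4.3.3 on log2(signal + 16), with an intensity trend and diet as its only term. Adjustment was by Benjamini-Hochberg across 18625 probe sets at or above the 40th percentile of mean log2 signal. Genes below it are given by their values. The pseudocount understates folds of dim genes. Correlations over arrays used exact permutation of all pairings (Python 3.11.15).

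Replicate numbers did not pair the arrays, as deviations of same-numbered arrays correlated at -0.38, -0.05, -0.12 and 0.03. Alternatives were other pseudocounts, scalings, filters and variance models, array weights, the beta-actin covariate, the replicate block and leaving out arrays. The genes, lists and tests were chosen with earlier results of these data known. Genes named are the 10, the 4 of each list with the smallest p, the 3 closest pairs and the closest gene to each, except Prlr, Men1, Myc, Col3a1, Ins1 and Gcg.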

Additional observations from a re-analysis of the deposited data

Results flagged for a closer look

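In 4 of 30 groups of member signals, 1 array lay farther from the rest than Dixon's 95% limit for a gap relative to the range. Chance gives about 1 in 20 groups, and probe sets on the same arrays are not independent. Cafeteria replicate 1 was low for Ccnd1, at 2118. Cafeteria replicate 5 was low for Cdkn2c, at 464.9. Standard replicate 2 was low for Ccnd2, at 16444, and high for Cdkn1c, at 138.7.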

How the results depend on the processing

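Of 213 log2 folds recomputed for the 10 genes under other settings, 4 of them from the mean of all probe sets of a gene and the rest from main probe sets, 192 kept their sign and 21 turned. Of the 173 that were tested, 0 passed limma's adjusted threshold (lowest adjusted p = 0.513). The other 40, of Cdk6 and Cdkn2b, were below the filter. Changing only the filter, the intensity trend or the robust variance fit leaves a fold as it was. Those signs, among the 192, could not turn. Over all probe sets the count called was 0 to 2 with each array left out, the 2 without standard replicate 2, and 1080 without adjustment. At an unadjusted p under 0.05, leaving out cafeteria replicate 1 brought in the main probe set of Ccnd1 (limma, 0.0206), and the count over all probe sets was 1717 with no filter, 1821 with array weights, 1655 with cafeteria replicate 1 left out, 1674 and 711 with standard replicates 1 and 3 left out in turn, and 657 with 3 doubted arrays left out (standard replicates 1 and 3, cafeteria replicate 3).

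With each array left out, the fold lay between -0.10 and 0.13 for Ccnd3, -0.11 and 0.15 for Cdkn1a, -0.41 and 0.22 for Cdkn2b, and -0.084 and 0.38 for Cdkn2c. Without the 3 doubted arrays it was -0.079 for Ccnd1, -0.015 for Ccnd3, 0.0019 for Cdk4 and -0.060 for Cdkn2c. Array weights gave 0.083 for Cdkn2b, and the mean of all probe sets gave -0.28 for Cdkn1b. The causes were not tested. With the replicate block, Cdkn1a had -0.11 and Cdkn2b 0.14, the count at an unadjusted p under 0.05 was 582, and no call changed. Only the cafeteria group has a replicate 5, so the block folds equal those without that array. The 2 settings therefore count the same turned signs. The correlation of Ccnd2 with Cdk4 was -0.76 centred within diet and 0.033 without cafeteria replicates 3 and 5. With list means in place of sums, chosen after the data were seen, Ccnd1 and Ccnd2 had r = 0.89 and 0.86 with their lists. Signals near background limit Cdk6 and Cdkn2b. Cdkn1c had no value with the filter at the 60th percentile.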
